A study of Mus musculus with 9 samples.

Results

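Rad51b, Adgrv1, Raet1d, and A1bg are 4 of the 23183 genes in the deposited liver RNA-Seq tables, of which 16889 had a value above 0 in at least 1 liver. They were chosen by earlier results of these same data, for their levels in the ND and HFD groups, and the rule kept each gene that was above 0 in at least 1 of the 9 livers, as all 4 were. A1bg, above 0 in 3 livers, lay nearest to that limit, and none of the 4 genes fell outside it. Since the genes were chosen by the HFD vs. ND contrast, their HFD vs. ND differences are descriptions with no test. PRF 50 vs. HFD and PRF 50 vs. ND use the PRF 50 livers, which that contrast did not, but they share the HFD or ND livers with it.

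The liver samples came from male mice of the inbred strain C57BL/6J at post natal day 100, with 1 library per mouse and 3 mice per group. The ND group received a diet with 14% fat, and the HFD group received a diet with 60% fat, each for 10 weeks. The PRF 50 group stayed on the 60% fat diet and was given PRF daily by mouth at 50 mg per kg of body weight, in 0.5% carboxymethyl cellulose, during the last 5 of these weeks. PRF is a hexane fraction of Jinkyool (Citrus sunki) leaf that is rich in polymethoxyflavones, and the PRF 50 vs. HFD comparison asks how it affects livers that are already under the high-fat diet.

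Expression is given as log2(FPKM + 1), where FPKM counts sequenced fragments after division by transcript length and library depth. Since 1 is added, differences of weakly expressed genes come out smaller than their ratios, so ratios of mean FPKM are given as well. Read counts were not used here, and the absolute depth is unknown. Relative depth, read from the smallest values with HFD mouse 1 set to 1, was 1.06, 1.15, and 1.11 in ND mice 6, 7, and 9, then 1.17 and 1.59 in HFD mice 2 and 3, and 0.980, 1.51, and 0.963 in PRF 50 mice 3, 9, and 10. The groups overlapped in depth. A value of exactly 0 says only that a gene is listed at 0, since even Alb, the gene for serum albumin, which hepatocytes make in great amounts, has only zeros in the 9 tables. The tissue label was checked with 12 hepatocyte markers, of which 11 were above 0, led by the apolipoprotein gene Apoa1 at 12.69 to 13.50, and 0 of the 11 tested passed an adjusted p of 0.05 in any of the 3 comparisons with limma. At an unadjusted p under 0.05, 1 did in PRF 50 vs. HFD, 0 in PRF 50 vs. ND, and 3 in HFD vs. ND.

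The genes serve unrelated functions. Rad51b encodes a nuclear protein that acts in a complex with Rad51c, Rad51d, and Xrcc2 in the repair of DNA breaks by homologous recombination. Adgrv1 encodes a very large adhesion G-protein-coupled receptor, best known from the ankle links of inner-ear hair cells and from photoreceptors, where its loss impairs hearing and vision. Raet1d encodes a cell-surface ligand that is related to MHC class I molecules and is induced in stressed cells; it is bound by NKG2D (the product of Klrk1), an activating receptor of NK and T cells that signals through the adaptors Hcst and, in mice, Tyrobp. A1bg encodes a secreted plasma glycoprotein of the immunoglobulin superfamily and is known in mouse liver for higher expression in females.

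The levels under PRF are described gene by gene, and the genes were not tested against each other. Adgrv1, high in HFD livers, was much lower in all 3 PRF 50 livers, although each remained above every ND liver. Rad51b, also high in HFD livers, was at the ND level in PRF 50 mouse 10 and close to the HFD level in the other 2 PRF 50 mice. Raet1d, low in HFD livers, showed no return toward ND and was low in all 3 PRF 50 livers. A1bg was listed at or near 0 in every group, so its values do not show a switch by diet.

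**Figure D1:**
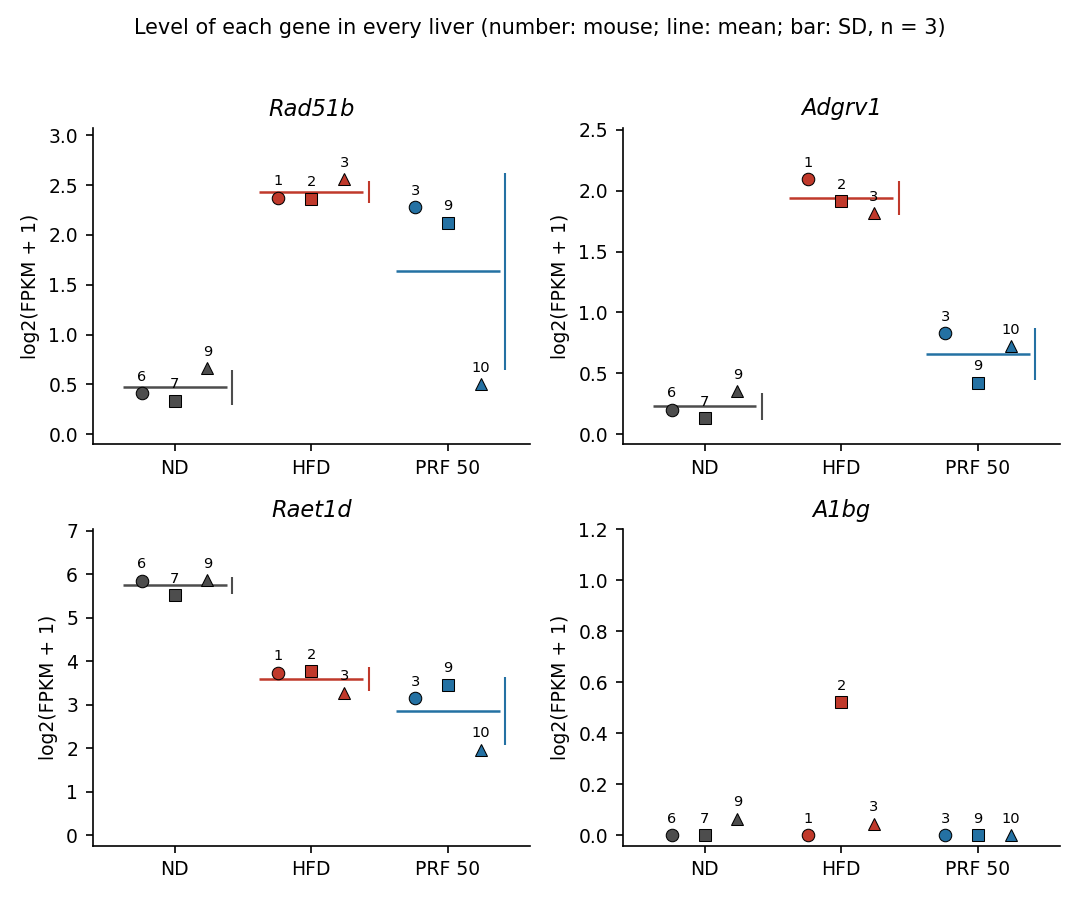
Level of Rad51b, Adgrv1, Raet1d, and A1bg in each liver, as log2(FPKM + 1) on the vertical axis against the ND, HFD, and PRF 50 groups. Points are single livers numbered by mouse, horizontal lines are group means, and vertical bars are the SD (n = 3), left out for A1bg because of its zeros. PRF 50 mouse 10 lies at 0.50 for Rad51b, within the ND range of 0.33 to 0.66.

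Rad51b lies on GRCm38 chromosome 12 from 79297282 to 79814690 on the plus strand, a span of 517409 bases with 4 annotated transcripts, whose exons cover 3757 bases. Its promoter is shown as the gene with the widest spread between PRF 50 livers. The 250 bases before its first RefSeq start (GRCm38.p6, chr12:79297032-79297281, plus strand) lie outside annotated genes and hold none of the 3 motifs described below, so no base is in capitals.
Rad51b: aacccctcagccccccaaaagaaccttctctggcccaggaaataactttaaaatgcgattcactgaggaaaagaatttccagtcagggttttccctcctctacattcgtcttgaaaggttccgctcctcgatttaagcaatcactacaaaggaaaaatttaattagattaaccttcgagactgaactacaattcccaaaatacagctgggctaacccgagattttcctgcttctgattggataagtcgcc

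Rad51b was 0.41, 0.33, and 0.66 in ND mice 6, 7, and 9, 2.37, 2.36, and 2.56 in HFD mice 1, 2, and 3, and 2.28, 2.12, and 0.50 in PRF 50 mice 3, 9, and 10 on the log2(FPKM + 1) scale. The HFD livers all lay far above the ND livers, whereas the PRF 50 group was divided, with mice 3 and 9 just below the HFD livers and mouse 10 among the ND livers. The group levels were 0.47 ± 0.17, 2.43 ± 0.11, and 1.63 ± 0.98 (SD, n = 3) for ND, HFD, and PRF 50, respectively. In mean FPKM these are 0.391, 4.41, and 2.54, so that HFD was 11.3 times ND. The HFD and ND groups did not overlap, which also held for 20.7% of the 9978 genes tested in HFD vs. ND, with 1.34% of them past the unadjusted criteria of the study and 1.33% past an adjusted p of 0.05. Nothing is read from this contrast.

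The log2 difference of Rad51b in PRF 50 vs. HFD was -0.80 (standard error 0.43, adjusted p = 0.355 from limma), which is not beyond the spread between mice. All 3 PRF 50 values were below all 3 HFD values, and these groups did not overlap, in either direction, for 26.2% of the 10084 tested genes. The difference was 1.16 in PRF 50 vs. ND (standard error 0.43, adjusted p = 0.323 from limma), with overlap through PRF 50 mouse 10. That mouse decides both values. Without it, the log2 difference was -0.23 from HFD (adjusted p = 0.338) and 1.73 from ND (adjusted p = 0.00765), and over all alternatives tried the adjusted p from limma was 0.265 to 0.548 for PRF 50 vs. HFD and 0.00765 to 0.632 for PRF 50 vs. ND. Each liver was left out in turn, and no call is read from the single fit without the mouse at the ND level. In PRF 50 vs. ND, Rad51b reached the minimum mean of 1 FPKM only through the PRF 50 livers.

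The partners of Rad51b had smaller differences between groups. The choice of Rad51b by HFD vs. ND favors this, so nothing is read from it. Rad51d was 1.71, 1.75, and 1.83 in the ND livers, 1.87, 2.04, and 2.29 in the HFD livers, and 2.09, 2.26, and 2.14 in the PRF 50 livers. Like Rad51b it was higher in all HFD livers than in any ND liver, and unlike Rad51b it was so in all PRF 50 livers as well (log2 difference 0.40 in PRF 50 vs. ND, adjusted p = 0.173 from limma). Over the 9 livers Xrcc2 was between 0.50 and 0.83 and Rad51c between 0.00 and 0.25. Of 29 listed genes of homologous recombination, all were measured, and besides Rad51b 13 were tested in PRF 50 vs. HFD, and 14 in each of PRF 50 vs. ND and HFD vs. ND. In limma 0 of them passed an adjusted p of 0.05 in any comparison, and 1, 3, and 0, respectively, had an unadjusted p under 0.05. Over all tested genes 3.59%, 0.458%, and 1.33% passed the adjusted threshold and 20.2%, 12.5%, and 15.1% the unadjusted one, which are the shares to hold beside all such counts here. Xrcc3, 1 of the 3 list genes counted in PRF 50 vs. ND, reached the minimum level only through the ND livers. The median log2 difference of the list was -0.04, -0.04, and 0.04, beside -0.02, -0.03, and -0.01 over all tested genes. Its most abundant gene by the mean FPKM of all 9 livers, Zswim7, which encodes a partner of Swsap1, was between 3.63 and 4.26. In the PRF 50 livers, the mean of Rpa3 was slightly higher than that of Zswim7 (13.83 against 13.76 FPKM).

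The genes most like Rad51b over the 9 livers, among 10047 with a mean of at least 1 FPKM, were Anxa11 (Pearson's r = 0.95), 9030619P08Rik (0.95), Gda (0.94), Chd1l (0.94), and Glyctk (0.94). These are descriptions over livers from 3 groups. Chd1l, a chromatin remodeler active at DNA breaks, was 2.02, 2.02, and 2.07 in the ND livers, 2.39, 2.39, and 2.38 in the HFD livers, and 2.35, 2.37, and 2.21 in the PRF 50 livers. Its groups were ordered as for Rad51b within a much narrower range. 9030619P08Rik was 2.35, 1.84, and 3.10 in the ND livers, 5.08, 5.80, and 5.21 in the HFD livers, and 5.09, 4.54, and 3.41 in the PRF 50 livers, again with mouse 10 lowest of its group.

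PRF 50 mouse 10 also lay apart from mice 3 and 9 in 4 genes that were chosen after their values were seen. Cish, Socs2, and Onecut1 are from a list of growth hormone signalling, the pathway that sets sex differences in liver expression, and Bcl6 is from the list of male-predominant genes. Cish, a feedback inhibitor of this pathway, was 4.23, 3.79, and 3.67 in the ND livers, 2.34, 2.32, and 1.14 in the HFD livers, and 1.85, 1.41, and 3.33 in PRF 50 mice 3, 9, and 10. Socs2, another feedback inhibitor, was 3.45, 3.16, and 3.78 in the ND livers, 1.98, 2.56, and 2.34 in the HFD livers, and 2.62, 2.66, and 3.59 in the PRF 50 livers. In both genes mouse 10 was the highest of its group and nearest to the ND livers. The transcription factor gene Onecut1 was 3.52, 3.53, and 4.64 in the ND livers, 2.06, 2.61, and 2.25 in the HFD livers, and 1.76, 1.98, and 4.25 in the PRF 50 livers. The repressor gene Bcl6 was 1.59, 1.43, and 1.15 in the ND livers, 2.46, 2.17, and 3.78 in the HFD livers, and 3.72, 4.48, and 1.55 in the PRF 50 livers. Mouse 10 was within the ND range in Onecut1 and Bcl6, while mice 3 and 9 were not. Other genes of the growth hormone list, also picked by their values, did not set mouse 10 apart, among them Jak2 (2.45, 2.34, and 2.36 in PRF 50 mice 3, 9, and 10) and Stat5b (3.26, 3.32, and 3.22).

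Of 15 growth hormone signalling genes, 14 were tested, and 0 passed an adjusted p of 0.05 in PRF 50 vs. HFD or PRF 50 vs. ND with limma, with 2 and 4 at an unadjusted p under 0.05. In HFD vs. ND, Socs2 (adjusted p = 0.0331) and Cish (adjusted p = 0.0318) fell, by 1.17 and 1.96 on the log2 scale, respectively, where 1.33% of all tested genes passed. With 1 liver left out, 0 to 1 of the list passed there. The list's most abundant gene, the receptor Ghr, was between 8.05 and 8.43 in all 9 livers. The median log2 difference of the list was 0.05, -0.11, and -0.24 in PRF 50 vs. HFD, PRF 50 vs. ND, and HFD vs. ND, beside -0.02, -0.03, and -0.01 over all tested genes. What part growth hormone signalling has in the level of Rad51b was not tested.

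**Figure D2:**
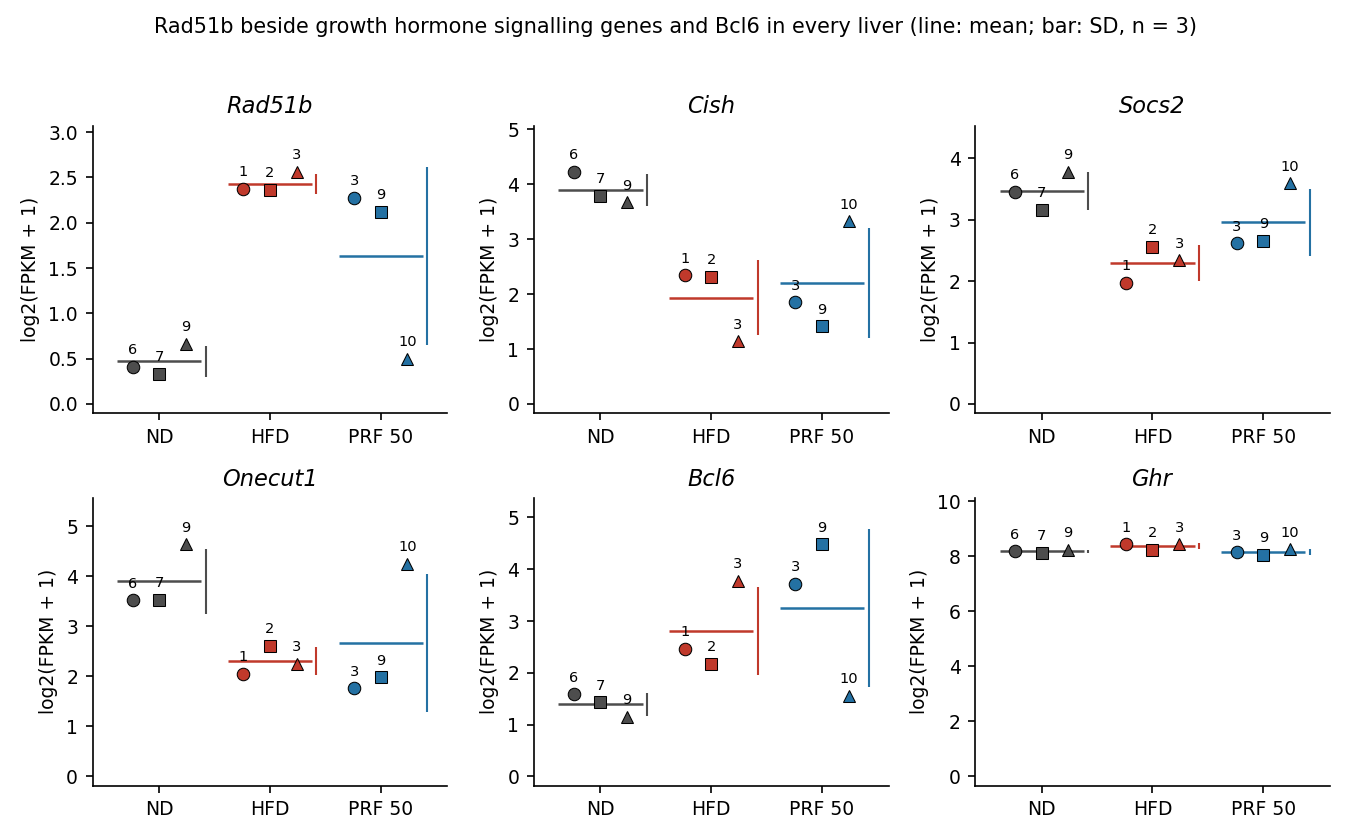
Rad51b beside Cish, Socs2, Onecut1, Bcl6, and Ghr in each liver, as log2(FPKM + 1) against the ND, HFD, and PRF 50 groups, with points numbered by mouse, lines for group means, and bars for the SD (n = 3). PRF 50 mouse 10 is apart from mice 3 and 9 in every panel except Ghr, whose values lie between 8.05 and 8.43.

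Adgrv1 lies on GRCm38 chromosome 13 from 81095068 to 81633154 on the minus strand, a span of 538087 bases with 14 annotated transcripts, whose exons cover 24878 bases. Its promoter is shown because Adgrv1 is the gene with the largest difference between PRF 50 and HFD livers of the 4. The 250 bases before its RefSeq start (GRCm38.p6, chr13:81633145-81633394, minus strand) reach 10 bases into the annotated first exon, and capitals mark a nuclear receptor half-site, AGGTCA, whose first base lies at -237 from the start.
Adgrv1: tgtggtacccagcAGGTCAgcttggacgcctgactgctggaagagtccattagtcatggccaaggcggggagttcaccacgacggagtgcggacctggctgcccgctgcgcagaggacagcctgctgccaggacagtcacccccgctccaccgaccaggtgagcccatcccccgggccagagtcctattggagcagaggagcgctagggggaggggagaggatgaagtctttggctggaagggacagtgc

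Adgrv1 was 0.20, 0.13, and 0.35 in ND mice 6, 7, and 9, 2.10, 1.91, and 1.82 in HFD mice 1, 2, and 3, and 0.83, 0.42, and 0.72 in PRF 50 mice 3, 9, and 10. No group overlapped another, with ND lowest, PRF 50 between, and HFD highest. Groups did not overlap, in either direction, for 26.2% of the tested genes in PRF 50 vs. HFD, 19.9% in PRF 50 vs. ND, and 20.7% in HFD vs. ND. The group levels were 0.23 ± 0.11, 1.94 ± 0.14, and 0.66 ± 0.21 (SD, n = 3) for ND, HFD, and PRF 50, respectively. In mean FPKM these are 0.174, 2.85, and 0.589, so that HFD was 16.4 times ND and 4.84 times PRF 50.

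The log2 difference of Adgrv1 in PRF 50 vs. HFD was -1.28 (adjusted p = 0.0147 from limma, standard error 0.14), lower in 3 of 3 PRF 50 livers. This p does not allow for the choice of Adgrv1 by its high HFD level, which favors a lower value in any other group. Adgrv1 also reached the minimum mean of 1 FPKM only through the HFD livers, since its PRF 50 mean was 0.589 FPKM, and with no minimum level the adjusted p was 0.0396. For these reasons the difference is given as a description. Of all tested genes 3.59% had an adjusted p under 0.05, and 2.10% met the criteria used in the study, an unadjusted p under 0.05 and a fold above 2. The adjusted p was above 0.05 without HFD mouse 2 (-1.30, adjusted p = 0.0563) and without HFD mouse 3 (-1.35, adjusted p = 0.0529), with a range of 0.00256 to 0.0563 over all alternatives. The mean over the ND and PRF 50 livers was below 1 FPKM, so PRF 50 vs. ND was not tested for Adgrv1. Its log2 difference there was 0.43, with PRF 50 3.39 times ND in mean FPKM.

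Of 30 listed adhesion G-protein-coupled receptors, 29 were measured, 4 of them (Adgra1, Adgrb3, Adgrf3, and Adgrg7) were listed at 0 in all livers, and besides Adgrv1 8 were tested. In PRF 50 vs. HFD, 3 of the 8 rose (Adgre1 by 1.60, adjusted p = 0.0263; Adgre4 by 1.13, adjusted p = 0.0373; Adgre5 by 1.04, adjusted p = 0.0186) and 0 fell in limma, with 4 at an unadjusted p under 0.05, beside 3.59% of all genes past the adjusted threshold. Of these 3 calls, 0 were left without HFD mouse 2, HFD mouse 3, or PRF 50 mouse 3, and 0 to 3 over the fits with 1 liver left out. Without each of those livers, the calls over all tested genes also fell, from 362 to 31, 15, and 40, respectively. The median log2 difference of the 8 was 0.68, beside -0.02 over all tested genes. Against ND, 0 of 8 passed in PRF 50 livers, with 3 at an unadjusted p under 0.05 and a median of 0.04, beside -0.03. In HFD vs. ND 1 passed, Adgrf1 (log2 difference -1.05, adjusted p = 0.0261), with a median of -0.12, beside -0.01. In HFD vs. ND, Adgrf1 reached the minimum level only through the ND livers. It passed in 1 of the 3 fits with 1 liver left out in which it was still tested, so its difference is a description. In PRF 50 vs. HFD, Adgrf1 was 1 of the 4 genes at an unadjusted p under 0.05. It reached the minimum level there only through the PRF 50 livers. It was 1.42, 1.25, and 1.62 in the ND livers, 0.61, 0.23, and 0.30 in the HFD livers, and 1.18, 0.93, and 2.26 in the PRF 50 livers. Adgrg2, too low for a test and chosen after its values were seen, was 0.41, 0.33, and 0.41 in the ND livers, 0.63, 0.63, and 0.56 in the HFD livers, and 0.44, 0.41, and 0.25 in the PRF 50 livers. Like Adgrv1 it was highest in the HFD livers, in a narrower range. The most abundant receptor by the mean FPKM of all 9 livers, Adgra2, was between 2.81 and 3.13. In the PRF 50 livers, Adgre1 and Adgre5 were higher than Adgra2.

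Adgre1, Adgre4, and Adgre5 are receptors of myeloid cells, and Adgre1 (F4/80) is itself a macrophage marker. All 10 listed Kupffer cell and macrophage markers were measured and tested, none was at 0, and 8 of 10 rose in PRF 50 vs. HFD with limma, beside 3.59% of all tested genes. This count was 1 without HFD mouse 2, 0 without HFD mouse 3 or PRF 50 mouse 3, and 0 to 8 over the fits with 1 liver left out. The same fits cut the calls over all tested genes, from 362 to 31, 15, and 40, respectively. In PRF 50 vs. ND 0 of 10 passed, beside 0.458%, although all 10 were higher and had an unadjusted p under 0.05. The median log2 difference was 1.39 and 1.42 in these comparisons, beside -0.02 and -0.03 over all tested genes. In HFD vs. ND 0 of 10 passed (0 at an unadjusted p under 0.05), with a median of 0.07, beside -0.01. Their summed level was 76.3, 142, and 197 FPKM in the ND livers, 98.1, 167, and 167 FPKM in the HFD livers, and 560, 308, and 371 FPKM in PRF 50 mice 3, 9, and 10. Cd5l was the most abundant by the mean of all 9 livers, though in the HFD livers the mean of Lyz2 was higher. In whole-liver RNA, more cells of a type and more RNA per cell cannot be told apart. The part of these cells in the levels of the Adgre genes was not tested.

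Transcripts of the genes whose products join Adgrv1 in the ankle link were low. All 9 listed genes were measured, and besides Adgrv1 none reached the mean of 1 FPKM needed for a test in any comparison. The scaffold gene Pdzd7 was between 0.00 and 0.16, Whrn between 0.06 and 0.45, and Myo7a, the highest besides Adgrv1, between 0.67 and 1.17. Adgrv1 made up 10.3% of the list's summed FPKM in ND livers, 75.3% in HFD livers, and 33.9% in PRF 50 livers.

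The genes most like Adgrv1 over the 9 livers, among 10047, were Kdm1b (Pearson's r = 0.96), Fabp2 (0.96), Ppp1r3b (0.96), Trim7 (0.95), and Ak4 (0.95). Ppp1r3b, which targets a phosphatase to glycogen, was 4.50, 4.07, and 4.78 in the ND livers, 6.14, 5.58, and 6.11 in the HFD livers, and 5.01, 4.58, and 4.74 in the PRF 50 livers. Kdm1b, a histone demethylase gene, was 2.72, 2.71, and 2.70 in the ND livers, 3.07, 3.01, and 2.99 in the HFD livers, and 2.72, 2.76, and 2.80 in the PRF 50 livers. In both genes the 3 HFD livers were above all others. PRF 50 mouse 10, apart from its group in Rad51b, lay between mice 9 and 3 in Adgrv1.

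Raet1d lies on GRCm38 chromosome 10 from 22360552 to 22374139 on the plus strand, with 2 annotated transcripts whose exons cover 1441 bases. Its paralog Raet1e is annotated from 22158569 to 22374139 on the same strand and so spans the whole of Raet1d. Of the 1340 stretches of 100 bases in Raet1d transcripts, 478 (35.7%) also occur in Raet1e transcripts, which makes 25.0% of the 1913 stretches of Raet1e. Reads of these genes can therefore be assigned to either one, and the single values of Raet1d and Raet1e are uncertain. None of the 3652 stretches of Rad51b or the 2397 of A1bg occurs in another gene, and 13 of the 24861 of Adgrv1 (0.0523%) do.

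The promoters of Raet1d and Raet1e are shown because these genes have near-identical starts and share transcript sequence. The 250 bases before the RefSeq start of Raet1d (GRCm38.p6, chr10:22361644-22361893, plus strand) lie in the annotated spans of Raet1d and Raet1e, with 2 bases in an annotated exon of Raet1d. Those before the second RefSeq start of Raet1e (GRCm38.p6, chr10:22173247-22173496, plus strand) lie 188397 bases upstream, in the annotated spans of Raet1e and H60b, with 4 bases in an annotated exon of Raet1e. Aligned with an offset of 2 bases, 245 of 248 positions were identical (98.8%). Capitals mark the 3 that differ, C126T, G178C, and A193C, given as the Raet1d base, its position from 1 at the 5′ end of the Raet1d window, and the Raet1e base.
Raet1d: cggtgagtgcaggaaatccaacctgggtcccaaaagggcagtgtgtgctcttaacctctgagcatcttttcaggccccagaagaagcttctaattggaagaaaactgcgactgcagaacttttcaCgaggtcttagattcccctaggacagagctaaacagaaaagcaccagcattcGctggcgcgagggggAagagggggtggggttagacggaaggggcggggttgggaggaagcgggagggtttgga
Raet1e: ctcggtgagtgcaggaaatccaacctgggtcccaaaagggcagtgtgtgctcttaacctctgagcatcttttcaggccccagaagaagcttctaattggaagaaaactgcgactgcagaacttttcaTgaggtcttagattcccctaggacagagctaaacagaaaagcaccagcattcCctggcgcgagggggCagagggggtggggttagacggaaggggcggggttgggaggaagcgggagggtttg

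Raet1d was 5.85, 5.52, and 5.86 in ND mice 6, 7, and 9, 3.74, 3.78, and 3.28 in HFD mice 1, 2, and 3, and 3.15, 3.46, and 1.97 in PRF 50 mice 3, 9, and 10. The ND livers were all far above the other 6, the HFD and PRF 50 groups overlapped, and PRF 50 mouse 10 was the lowest of all. The group levels were 5.74 ± 0.19, 3.60 ± 0.28, and 2.86 ± 0.79 (SD, n = 3) for ND, HFD, and PRF 50, respectively. In mean FPKM these are 52.9, 11.2, and 6.92, so that ND was 4.70 times HFD and 7.64 times PRF 50. With 52.9 FPKM in ND livers, Raet1d ranked above 92.5% of the genes with a value above 0 in at least 1 liver.

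The log2 difference of Raet1d in PRF 50 vs. ND was -2.89 (adjusted p = 0.0217 from limma, standard error 0.35), lower in 3 of 3 PRF 50 livers. This p does not allow for the choice of Raet1d by its high ND level, and the difference is given as a description. Of the 10051 genes tested in PRF 50 vs. ND 0.458% had an adjusted p under 0.05, 1.76% met the unadjusted criteria of the study, and the groups did not overlap for 19.9%. Its log2 difference in PRF 50 vs. HFD was -0.74 (standard error 0.36, adjusted p = 0.313 from limma), so no difference beyond the spread between mice was found. The adjusted p in PRF 50 vs. ND was above 0.05 without ND mouse 6 (-2.83, adjusted p = 0.117), ND mouse 7 (-3.00, adjusted p = 0.0747), or PRF 50 mouse 3 (-3.03, adjusted p = 0.0671), and with no minimum level (adjusted p = 0.0940), with a range of 0.00328 to 0.117 over all alternatives. PRF 50 mouse 10 decides the size in PRF 50 vs. HFD, which was -0.29 without it (adjusted p = 0.447).

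C57BL/6 mice are known to carry the delta and epsilon forms of this ligand family, encoded by Raet1d and Raet1e, while other forms are known from other strains. Raet1e was 3.67, 3.70, and 4.33 in the ND livers, 1.59, 2.26, and 1.07 in the HFD livers, and 1.36, 1.77, and 0.00 in PRF 50 mice 3, 9, and 10. Its ND livers too were above the other 6, and mouse 10 was again the lowest. In limma Raet1e fell in HFD vs. ND by 2.26 (adjusted p = 0.0162) and in PRF 50 vs. ND by 2.86 (adjusted p = 0.0441), and its log2 difference in PRF 50 vs. HFD was -0.60 (adjusted p = 0.543). Its call in HFD vs. ND was lost without ND mouse 6 or 7, and that in PRF 50 vs. ND without any 1 ND liver or PRF 50 mouse 3. With shared sequence, these values are no independent evidence for Raet1d. Raet1a and Raet1c are in the deposited tables but have no transcripts under these names in the annotation used here, so sequence shared with other genes could not be checked, and their values may come from reads of related genes. Raet1a, below the minimum level, was 1.14, 1.41, and 1.45 in the ND livers, 0.36, 0.19, and 0.34 in the HFD livers, and 0.18, 0.75, and 0.44 in the PRF 50 livers. Raet1b and H60b were listed at 0 in all 9 livers, and Raet1c was above 0 in ND mouse 9 (0.42) and PRF 50 mouse 10 (0.44) only.

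On the receptor side, Klrk1 was 0.33, 0.70, and 0.69 in the ND livers, 0.53, 0.39, and 0.43 in the HFD livers, and 0.77, 0.78, and 0.65 in the PRF 50 livers, too low for a test. The T and NK cell markers, 9 of 10 measured with none at 0 in all livers and none tested, summed to 3.97, 4.20, and 1.66 FPKM in the ND livers, 1.05, 1.28, and 1.91 FPKM in the HFD livers, and 5.38, 2.43, and 2.66 FPKM in the PRF 50 livers, led by Nkg7. Hcst was 0.42, 1.38, and 1.01 in the ND livers, 0.46, 0.71, and 0.75 in the HFD livers, and 2.30, 1.40, and 0.82 in the PRF 50 livers. Tyrobp, the most abundant gene of the list by the mean FPKM of all 9 livers (though not in the ND livers, where Raet1d was higher) and also expressed in macrophages, was 3.45, 4.24, and 4.64 in the ND livers, 3.94, 4.71, and 4.48 in the HFD livers, and 5.95, 5.27, and 5.26 in the PRF 50 livers. It was highest in the PRF 50 livers, and in PRF 50 vs. HFD its log2 difference of 1.12 missed the adjusted threshold (limma, adjusted p = 0.0590) while it met the unadjusted criteria of the study (2.23 times in mean FPKM). The macrophage markers, whose sums are given above, moved with it. Of 6 neutrophil markers 5 were measured, with none at 0 in all livers. S100a8 led them by the mean of all 9 livers, though the mean of S100a9 was higher in the ND livers. They summed to 2.96, 9.02, and 6.25 FPKM in the ND livers and 4.12, 3.27, and 4.91 FPKM in the HFD livers. In PRF 50 mice 3, 9, and 10 the sums were 54.7, 17.8, and 3.28 FPKM. Mice 3 and 9 were thus above all ND and HFD livers, but mouse 10 was not. The B cell markers, 5 of 6 measured with none at 0 in all livers, summed to 3.87, 3.43, and 2.68 FPKM in the ND livers, 1.61, 2.0, and 1.24 FPKM in the HFD livers, and 4.35, 4.71, and 2.91 FPKM in the PRF 50 livers. Jchain led them by the mean of all 9 livers, though the mean of Cd79b was higher in the ND and HFD livers. The part of these cells in the levels of Hcst and Tyrobp was not tested.

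Of 12 listed NKG2D ligands, receptor, and adaptors, 11 were measured, and besides Raet1d 3 were tested in PRF 50 vs. HFD, 3 in PRF 50 vs. ND, and 2 in HFD vs. ND. In limma 0 of 3 passed in PRF 50 vs. HFD (2 at an unadjusted p under 0.05), and Raet1e alone passed in PRF 50 vs. ND and in HFD vs. ND. Of the 2 genes at the unadjusted threshold, Hcst reached the minimum level only through the PRF 50 livers. With so few tested genes, the list medians of 0.87, 0.57, and -0.998, beside -0.02, -0.03, and -0.01 over all genes, say little about the list.

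**Figure D3:**
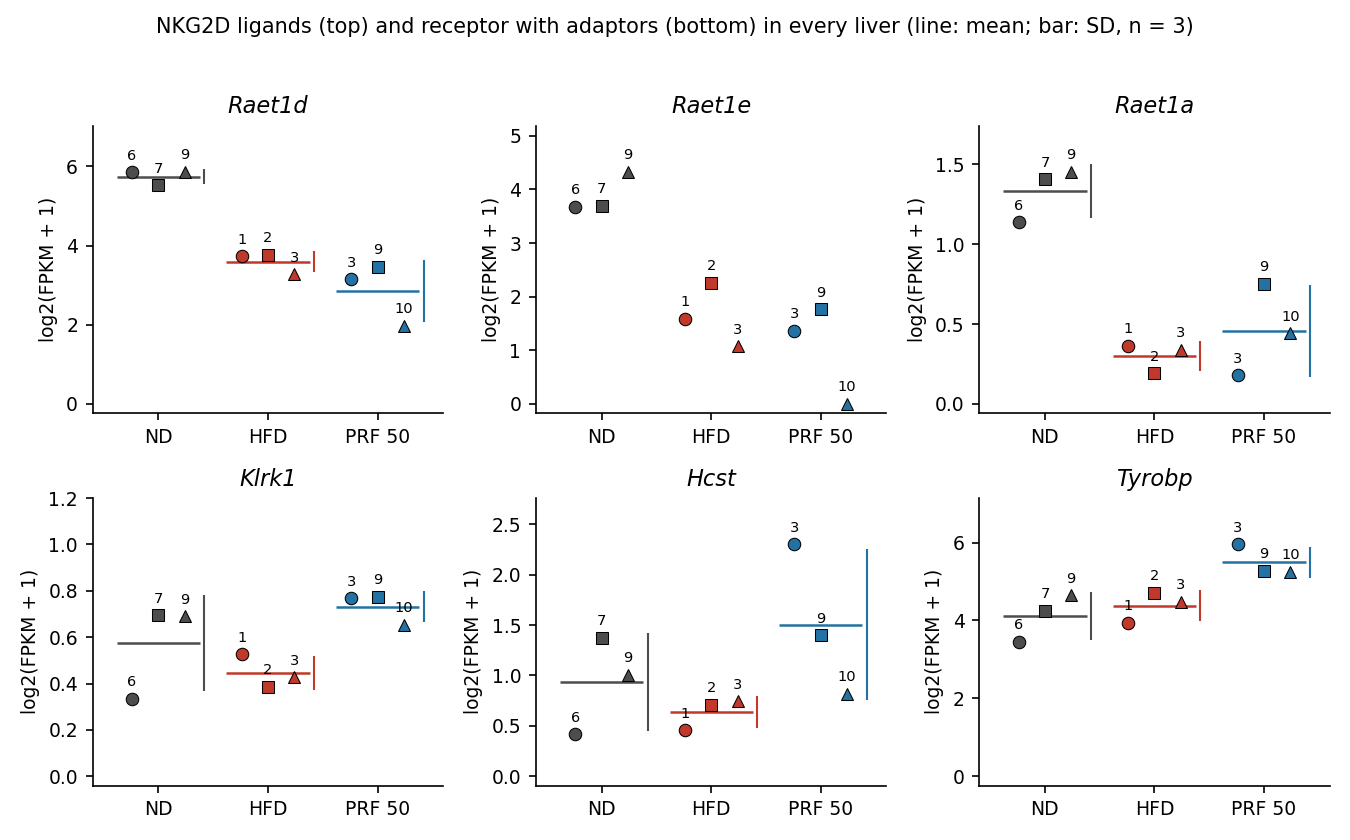
Raet1d, Raet1e, and Raet1a (ligands, top) and Klrk1, Hcst, and Tyrobp (receptor and adaptors, bottom) in each liver, as log2(FPKM + 1) against the ND, HFD, and PRF 50 groups, with points numbered by mouse. Lines are group means and bars the SD (n = 3), left out for Raet1e because of its 0.00 in PRF 50 mouse 10. The ND livers are the highest in each ligand panel, from 5.52 to 5.86 for Raet1d.

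The genes most like Raet1d over the 9 livers, among 10047, were Raet1e (Pearson's r = 0.98), Atg13 (0.96), Camsap3 (0.94), Mbd2 (0.93), and Dclre1c (0.93). Atg13, which encodes a regulator of autophagy, was 3.94, 3.86, and 3.92 in the ND livers, 3.70, 3.68, and 3.67 in the HFD livers, and 3.65, 3.77, and 3.58 in the PRF 50 livers. The ND livers were the highest of the 9, within a range far narrower than that of Raet1d.

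A1bg lies on GRCm38 chromosome 15 from 60896859 to 60923012 on the minus strand. It was 0.00, 0.00, and 0.06 in ND mice 6, 7, and 9, 0.00, 0.52, and 0.05 in HFD mice 1, 2, and 3, and listed at 0 in all 3 PRF 50 livers. The only value of any size was that of HFD mouse 2, at 0.436 FPKM, and the HFD group overlapped both other groups. A1bg did not reach the minimum level in any comparison and was not tested. No diet difference and no reversal by PRF can be read from it. The library of HFD mouse 2 stood apart elsewhere, since the small nuclear RNA gene Rnu6 was 22.44 there and listed at 0 in the other 8 livers, and Mup8 was 6.59 there against 1.79 and 2.11 in HFD mice 1 and 3 and 0 in the ND and PRF 50 livers. The 5 genes most like A1bg were Rnu6 (Pearson's r = 0.99), 2310045N01Rik (0.94), Mup8 (0.93), Cgref1 (0.93), and Sdr39u1 (0.88). Without that library r was lower for each, at 0.10 for 2310045N01Rik, 0.25 for Mup8, 0.65 for Cgref1, and 0.35 for Sdr39u1, and had no value for Rnu6.

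A1bg belongs to a list of 30 female-predominant liver genes, all measured. This list and the male-predominant list below were chosen with earlier results of these data known, so their counts are descriptions. Besides A1bg, 15 were tested in HFD vs. ND, of which 6 rose and 0 fell, and 14 in PRF 50 vs. HFD, of which 6 fell and 0 rose, with medians of 1.38 and -1.05, beside -0.01 and -0.02 over all tested genes. Of all tested genes 1.33% passed in HFD vs. ND and 3.59% in PRF 50 vs. HFD. In both comparisons 2 of the 6 calls, Cyp2b13 and Hao2, and 4 of the tested genes reached the minimum level only through 1 group. The counts and medians include these genes, and the differences of Cyp2b13 and Hao2 are descriptions. With 1 liver left out, 2 to 7 rose and 0 to 1 fell in HFD vs. ND, and 3 to 6 fell in PRF 50 vs. HFD. The largest difference among the tested genes of the list, in both comparisons, was that of Cyp2b9. It was 2.84, 1.08, and 0.66 in the ND livers, 6.57, 7.14, and 7.41 in the HFD livers, and 1.70, 0.88, and 0.55 in the PRF 50 livers. In HFD vs. ND, 12 of the 15 means were higher in HFD and 3 lower, Cyp2b10 (log2 difference -1.28), Cyp2c40 (-0.88), and Cyp2a5 (-0.39). Cyp2b10 reached the minimum level there only through the ND livers. In PRF 50 vs. HFD, all 14 were lower. Cyp2a5, the most abundant gene of the list, was between 8.59 and 10.40. Against ND, 0 of 12 passed in PRF 50 livers with limma, with 4 at an unadjusted p under 0.05 and a median of -0.36, beside -0.03, where 0.458% of all tested genes passed. Of the 12, 2 reached the minimum level only through 1 group. With 1 liver left out, 0 to 2 fell (2 without ND mouse 9). Of 30 male-predominant genes, 11 of 28 rose and 1 (Fitm1) fell in PRF 50 vs. HFD, 11 of 27 fell and 0 rose in HFD vs. ND, and 2 rose and 1 fell of 28 in PRF 50 vs. ND, all in limma, with medians of 0.95, -0.73, and 0.14, respectively, beside the same shares over all tested genes. In each comparison 1 of these calls (Moxd1 in both PRF 50 comparisons, Ugt2b38 in HFD vs. ND) reached the minimum level only through 1 group. The differences of Moxd1 and Ugt2b38 there are descriptions. Mup3, the most abundant of the male-predominant genes by the mean FPKM of all 9 livers, was between 13.2 and 13.9. In the PRF 50 livers the mean of Mup20 was higher. With 1 liver left out, 2 to 10 rose in PRF 50 vs. HFD (2 without HFD mouse 3), 5 to 10 fell in HFD vs. ND (5 without ND mouse 7), and 0 to 2 rose in PRF 50 vs. ND (0 without ND mouse 7). In these fits, 0 to 1 fell in PRF 50 vs. HFD and 0 to 3 in PRF 50 vs. ND (3 without PRF 50 mouse 10).

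The positions of the genes were compared with those of their neighbours, the genes of the tables that overlap them or start within 500 kb. Rad51b had 12 neighbours, of which none overlapped it and 6 were tested, with 0 past an adjusted p of 0.05 in limma in any comparison. At an unadjusted p under 0.05, 1 did in PRF 50 vs. HFD and 2 in each of the other comparisons, beside 20.2% of all tested genes in PRF 50 vs. HFD, 12.5% in PRF 50 vs. ND, and 15.1% in HFD vs. ND. The nearest, Zfyve26, starts at -0.978 kb on the opposite strand and had log2 differences of -0.18 in HFD vs. ND and 0.09 in PRF 50 vs. HFD. Adgrv1 had 5 neighbours, of which 4 were tested, with 0 past either threshold in any comparison and log2 differences of -0.39 to 0.18 in HFD vs. ND and -0.23 to -0.01 in PRF 50 vs. HFD. The antisense gene 9330111N05Rik, which starts beyond the 3′ end of Adgrv1 and overlaps it, was above 0 in HFD mouse 1 (0.19) and PRF 50 mouse 10 (0.19) only. Raet1d had 10 neighbours, of which 4 were tested, and Raet1e alone passed, in PRF 50 vs. ND and HFD vs. ND. A1bg had 2 neighbours, of which the 1 tested passed in no comparison. The signs near Rad51b were mixed. In HFD vs. ND the log2 difference was 0.29 for Atp6v1d, 0.40 for Pigh, and -0.60 for Rdh11. In PRF 50 vs. HFD it was -0.31, 0.05, and -0.03 for the same genes, and in PRF 50 vs. ND -0.03, 0.45, and -0.63. For Rad51b and Adgrv1, every tested neighbour had a smaller difference than the named gene in HFD vs. ND and in PRF 50 vs. HFD. The named genes were chosen by the HFD vs. ND contrast, and PRF 50 vs. HFD shares the HFD livers. Smaller differences of neighbours follow from this choice, so nothing is read from them. The Rad51b difference in PRF 50 vs. HFD also rests on PRF 50 mouse 10, at -0.23 without it.

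**Figure D4:**
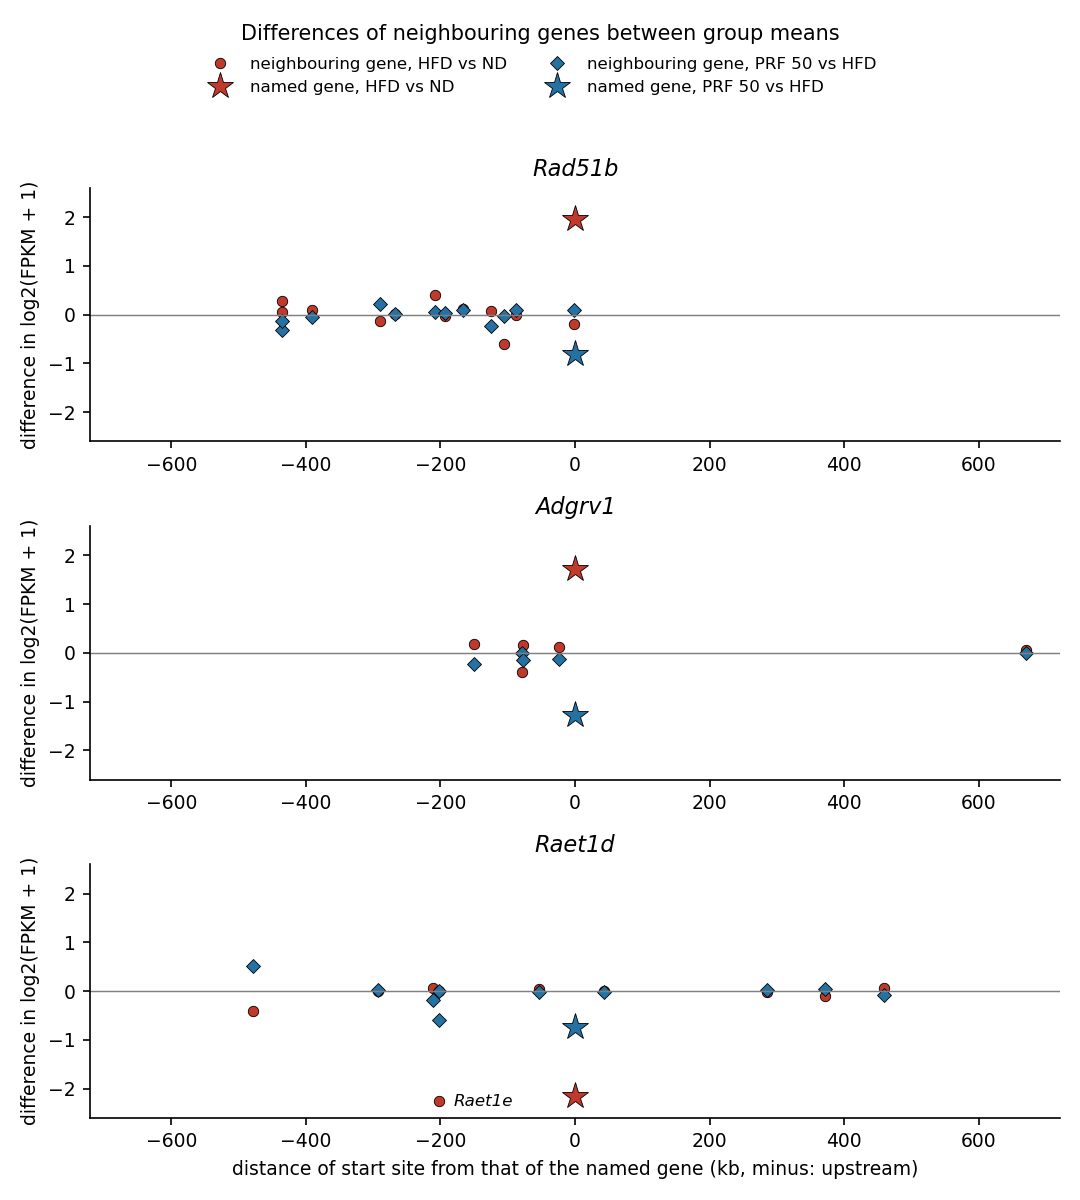
Log2 differences between group means (vertical axis, log2(FPKM + 1) units) of Rad51b, Adgrv1, and Raet1d (stars) and of their neighbouring genes (circles and diamonds) against the distance of each start site in kb. Red stands for HFD vs. ND and blue for PRF 50 vs. HFD. Raet1e, at -202 kb from the Raet1d start, was at -2.26 in HFD vs. ND and shares transcript sequence with Raet1d. The starred genes were chosen by HFD vs. ND, so nothing is read from their distance from 0 beside that of the neighbours.

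The promoters were searched on both strands for 3 motifs of regulators active in liver. The STAT5 motif TTCNNNGAA was found in 7.02% of all 32851 RefSeq promoter windows of this length, the HNF6 (Onecut1) core ATTGAT in 6.72%, and the nuclear receptor half-site AGGTCA in 14%. Of the 4 genes, the window of Adgrv1 holds 1 match, to AGGTCA, and that of A1bg holds 1 match to each motif, with first bases at -84, -150, and -59 from its start and no overlap between them. The windows of Raet1d, of both starts of Rad51b, and of both starts of Raet1e hold none. A match is a description of these letters only, and no binding was measured.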

How the data were processed

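Liver poly(A) RNA of 9 mice (3 ND, 3 HFD, and 3 PRF 50, grouped by the sample labels) was sequenced. After read trimming, the authors aligned the reads to mm10 with TopHat (both named in the submitters' processing notes), computed FPKM with Cufflinks, and applied a geometric normalization. They deposited 1 log2 value per gene symbol and mouse, read here as log2(FPKM + 1). The deposited log2 values have a lowest value of 0, from which the pseudocount of 1 is inferred. Tool versions and the gene annotation are not given in the sources used here, nor whether the counting of fragments used strand.

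Tests covered the genes whose mean FPKM over the 6 livers compared was 1 or more. They were done with limma (version 3.58.1; lmFit and eBayes with a trend) in R (version 4.3.3), with tables handled in Python (version 3.11.15), without covariates, with Benjamini-Hochberg adjustment over all tested genes. Every p in the text is from limma. The thresholds were an adjusted p of 0.05 and, as in the study, an unadjusted p of 0.05 with a fold of 2. Likeness was Pearson's r over 9 livers, with no p. Gene positions, transcripts, and neighbours within 500 kb were taken from GENCODE M21 (GRCm38), and promoters from RefSeq (GRCm38.p6), in which all 4 genes were found. Stretches of 100 bases were compared between transcripts of different genes. The list counts were repeated with each liver left out. The steps were tested on simulated data.

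The genes named are the 4 members, list genes that passed the test in a PRF 50 comparison (at most 6 per list), the most abundant tested gene of a list, close paralogs and direct partners, the 5 most alike genes, and the neighbours. Others are marked as chosen after their values were seen, or stand where a count is explained. The 4 genes and the lists were chosen with earlier results of these data known. Counts of list genes beside the shares over all tested genes are therefore descriptions. The homologous recombination and ankle-link lists were each shortened by 1 gene after the values were seen; neither gene had reached the minimum level for a test. The alternatives tried were all 9 livers in 1 fit, leaving out each liver, no minimum level, quantile normalization, a minimum of 10 FPKM, a pseudocount of 0.1, eBayes without a trend, and scaling by medians of ratios.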

Additional observations from a re-analysis of the deposited data

How the results depend on the processing

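No paired analysis was possible because the groups are different mice, with 1 library per mouse. The number 3 occurs in the HFD and PRF 50 groups and 9 in the ND and PRF 50 groups, but a shared number is not a pair. For the counts of genes past an unadjusted p of 0.05 with a fold above 2, the pseudocount of 0.1 gave 372 in place of 212 in PRF 50 vs. HFD, 289 in place of 177 in PRF 50 vs. ND, and 216 in place of 134 in HFD vs. ND, and the minimum of 10 FPKM gave 106, 97, and 68. With 1 liver left out, these counts were 168 to 253, 131 to 239, and 111 to 164. The counts past an adjusted p of 0.05 depended more on single livers. In PRF 50 vs. HFD, 362 became 126 with no minimum level and 15 to 242 with 1 liver left out (215, 31, and 15 without HFD mouse 1, 2, or 3; 40 and 168 without PRF 50 mouse 3 or 10). In PRF 50 vs. ND, 46 became 107 with all 9 livers in 1 fit, 11 with no minimum level, and 4 to 71 with 1 liver left out (17 and 4 without ND mouse 6 or 7; 8, 26, and 71 without PRF 50 mouse 3, 9, or 10). In HFD vs. ND, 133 became 37 with no minimum level and 35 to 140 with 1 liver left out (63 and 39 without ND mouse 6 or 7; 41 and 35 without HFD mouse 2 or 3). With 1 liver left out, the log2 difference in PRF 50 vs. HFD was -1.37 to -1.17 for Adgrv1, -1.12 to -0.23 for Rad51b, and -1.04 to -0.29 for Raet1d, and in PRF 50 vs. ND it was 0.92 to 1.73 for Rad51b and -3.19 to -2.44 for Raet1d. With no minimum level, the difference of Raet1d in PRF 50 vs. ND stayed at -2.89 while its adjusted p rose to 0.0940. Fits without 1 liver have fewer samples, and the cause of these shifts was not tested. All 12 alternatives left Rad51b and Raet1d on the same side of the threshold in PRF 50 vs. HFD, and 10 of 12 did for Adgrv1. A minimum of 10 FPKM gave no value for Rad51b, Adgrv1, or A1bg, nor for Raet1d in PRF 50 vs. HFD, and Rad51b in PRF 50 vs. ND had none without PRF 50 mouse 3. A1bg, and Adgrv1 in PRF 50 vs. ND (adjusted p = 0.266), were fitted only with no minimum level. The pseudocount of 0.1 gave -2.15 in place of -1.28 for Adgrv1 and -1.23 in place of -0.80 for Rad51b in PRF 50 vs. HFD, and 2.02 in place of 1.16 for Rad51b in PRF 50 vs. ND. It moved the HFD vs. ND difference of Rad51b from 1.96 to 3.25, of Adgrv1 from 1.71 to 3.47, and of A1bg from 0.17 to 0.76.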
